A study of Homo sapiens with 16 samples.

Results

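The protocadherin genes were followed in PANC-1, an established cell line derived from a human carcinoma of the pancreas, after knockdown of factors of histone gene expression and treatment with TGFb. The members were all rows of the gene table whose symbol is PCDH, with or without the letters of a cluster, followed by a number. Symbols of pseudogenes and PCDH11Y were left out. PCDH11X, whose symbol ends in a letter, does not match either. Of 65 matching symbols, PCDHA14 was left out because the GENCODE annotation types it as a pseudogene, which left 64 of 58219 genes. They comprise 15 alpha, 16 beta and 22 gamma genes in 3 neighbouring clusters on chromosome 5, and 11 genes outside the clusters. In GENCODE release 29 (build GRCh38) the alpha genes span chr5:140786136-141012347, the beta genes chr5:141051135-141249365 and the gamma genes chr5:141330571-141512981.

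The 16 libraries form 8 groups of 2. Cells were non-transfected or received siRNA against FLASH (gene CASP8AP2), NPAT or SLBP, each without TGFb or with TGFb at 100 ng/ml for 48 h. NPAT activates transcription of replication-dependent histone genes, and FLASH and SLBP act in the cutting of their transcript ends. The titles call the controls non-transfected and their descriptions call them Mock, and nothing says whether they received transfection reagent. The labels name no non-targeting siRNA, so in each comparison with these controls transfection and siRNA uptake cannot be told apart from the knockdown. The time is stated as day 3 in the titles and as 4 days after transfection in the design. All libraries come from 1 cell line, and nothing in the labels says that the 2 libraries of a group were separate cultures, so p-values measure the spread between these libraries, which may be technical.

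Protocadherins are single-pass membrane proteins of the cadherin superfamily with calcium-binding ectodomains that bind the same protein on a neighbouring cell. In the clusters, each alpha or gamma gene has its own promoter and first exon, which is spliced to constant exons shared by the whole cluster, while each beta gene is a single exon of its own. In neurons, stochastic promoter choice, with the insulator protein CTCF and cohesin joining a promoter to a distant enhancer, gives single cells different sets of isoforms. The C-type genes at the ends of the alpha and gamma clusters are, in mouse, expressed more uniformly. The non-clustered genes have their own promoters, and many belong to the delta-protocadherins, which are best known from the developing brain. Epithelial cells and carcinomas also express some members, and promoter methylation of several has been described in tumours.

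Promoters of the same cluster share short runs of letters. RefSeq promoter windows of the GRCh38.p14 build, from 250 bases before to 50 bases after a transcript start, were found for 56 of the 64 members, 13 alpha, 14 beta, 20 gamma and 9 non-clustered. The letters searched below were chosen after reading these windows, so their counts describe the windows and test nothing. Both strands were searched. A gene was counted if any of its windows held the run, with 62 windows for the 56 members. The share of all 35116 is over single windows. A run of ATGTCGCT was found in 9 of the 13 alpha genes and in no beta, gamma or non-clustered gene, against 0.234% of all 35116 promoter windows. A run of GGTGGCGCT was found in 13 of the 14 beta genes and in no other member, against 0.501% of all windows. A run of GNCGCTGT was found in 17 of the 20 gamma genes, 5 alpha genes, 1 beta gene and no non-clustered gene, against 4.35% of all windows. The runs overlap in the letters CGCT, which 70.0% of all windows hold, so that core alone says little. Over 9 alpha, 13 beta and 20 gamma hits in the genes of their own cluster, the runs began a median of 52, 66 and 65.5 bases before the start. The gamma hits count a site of PCDHGB1 and of PCDHGC4 once per window and include an opposite-strand hit of PCDHGA7. A match is only a run of letters and no evidence of a bound factor.

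The following stretches, 5′ to 3′ on the plus strand of chromosome 5, belong to members named below because they changed or because they are the highest of their cluster. Capitals mark the run of the respective cluster.
PCDHA4, chr5:140806971-140807018: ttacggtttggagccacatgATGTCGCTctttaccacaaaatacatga
PCDHA10, chr5:140855833-140855880: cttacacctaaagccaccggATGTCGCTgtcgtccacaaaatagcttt
PCDHA12, chr5:140875236-140875283: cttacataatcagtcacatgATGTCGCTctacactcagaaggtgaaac
PCDHB2, chr5:141094535-141094582: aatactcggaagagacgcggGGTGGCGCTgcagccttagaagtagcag
PCDHB14, chr5:141223254-141223301: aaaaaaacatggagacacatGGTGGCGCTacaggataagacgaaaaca
PCDHGB1, chr5:141350019-141350066: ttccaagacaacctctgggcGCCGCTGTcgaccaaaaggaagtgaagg
PCDHGA10, chr5:141412925-141412972: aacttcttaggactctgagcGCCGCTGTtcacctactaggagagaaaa
PCDHGC3, chr5:141475874-141475921: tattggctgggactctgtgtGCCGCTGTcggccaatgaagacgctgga

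Levels between genes were compared as TPM, which is per length. PCDHGC3, a C-type gamma gene known in mouse to act through Axin in Wnt signalling, had the highest mean over the 16 libraries at 25.8 TPM, and ranged from 14.4 to 35.4 TPM. It was followed by PCDH7, a delta-protocadherin, with a mean of 10.4 TPM and a range of 4.15 to 26.5 TPM. PCDHAC2, the last gene of the alpha cluster, had a mean of 8.70 TPM and PCDH1, known from epithelium of the airways, 7.45 TPM. PCDHB2 at 6.17 TPM and PCDH18 at 5.89 TPM came next. The ranges of these 5 genes overlap each other, so their order is not firm. PCDHGC3 alone made up a mean of 74.4% of the summed TPM of the gamma cluster, between 67.9% and 83.9% over the libraries. PCDHAC2 made up 56.7% of the alpha cluster and PCDHB2 38.4% of the beta cluster.

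**Figure D1:**
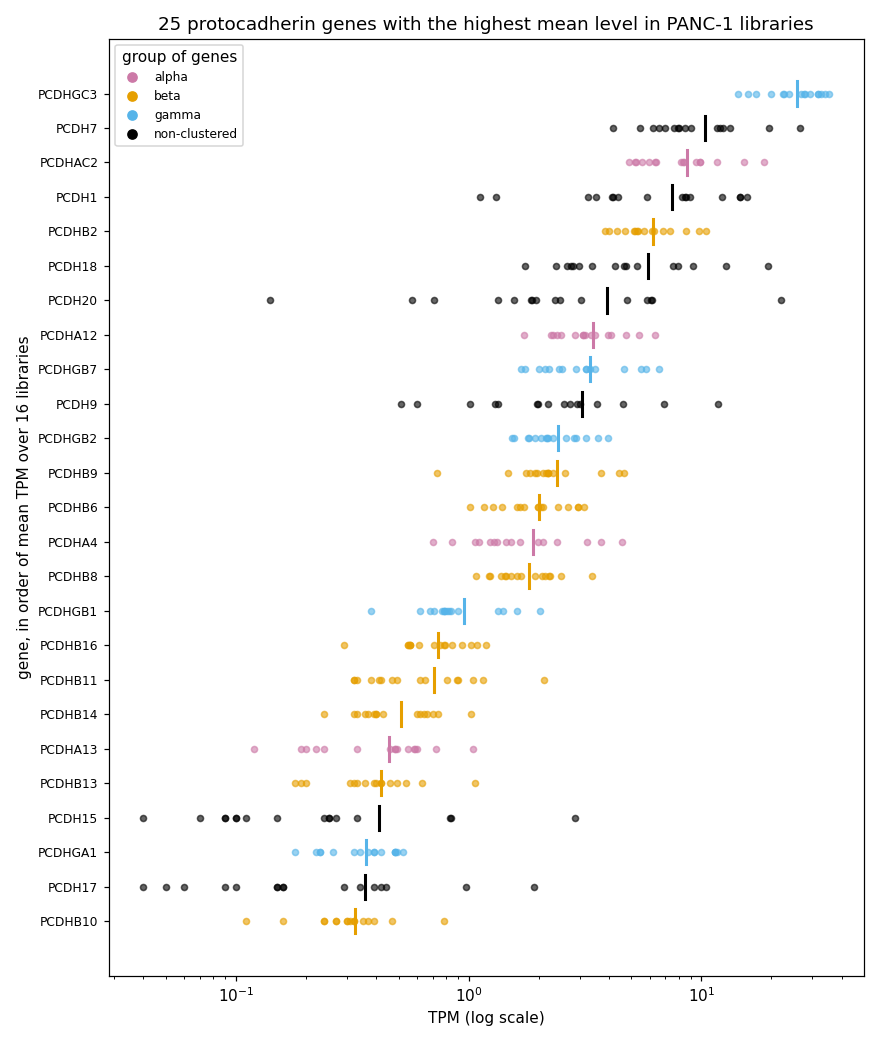
TPM on a log axis of the 25 protocadherin genes with the highest mean, with each of the 16 libraries as a point, the mean as a bar and the cluster as colour. PCDHGC3 leads with a mean of 25.8 TPM, and the non-clustered PCDH20 spans 0.14 to 22.0 TPM.

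The filter on low counts kept 41 members, of which 6 were alpha, 12 beta, 13 gamma and 10 non-clustered. A gene could pass through 2 libraries, so a gene near 0 in non-transfected cells could enter only through another group. The other 23 were not tested. They are PCDHA1, PCDHA2, PCDHA3, PCDHA5, PCDHA6, PCDHA7, PCDHA8, PCDHA9 and PCDHA11 of the alpha cluster, PCDHB1, PCDHB4, PCDHB5 and PCDHB15 of the beta cluster, PCDHGA2, PCDHGA3, PCDHGA7, PCDHGA8, PCDHGA9, PCDHGA12, PCDHGB4, PCDHGB6 and PCDHGC4 of the gamma cluster, and PCDH8. None of these exceeded 20 counts in any library, and PCDHA2 had no count in any of the 16 libraries.

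Reads from constant exons cannot be assigned to a promoter. In GENCODE release 29 transcripts, windows of 75 bases found in no other protocadherin of the list made up a median of 53.5% of an alpha gene's windows (range 40.6% to 81.4%) and 56.6% of a gamma gene's (30.7% to 70.3%). For beta genes the median was 91.3%, with a lowest value of 65.5%, and for every non-clustered gene it was 100%. The deposited expected counts divide shared reads between such genes by estimation, so values of single alpha and gamma genes, PCDHAC2 and PCDHGC3 included, carry this uncertainty. Sums over a cluster do not depend on how its own reads are divided.

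The targets were reduced in their own groups. CASP8AP2 was at 20.5% of the level in non-transfected cells after FLASH siRNA, NPAT at 10.7% after NPAT siRNA and SLBP at 5.77% after SLBP siRNA, with 21.0%, 12.7% and 6.5% in the presence of TGFb. Depth, the total of the expected counts in a library, ranged from 23830133 to 30832516, and mitochondrial genes took 6.96% to 13.15% of counts. In bulk RNA, fewer cells of a kind and less RNA per cell cannot be told apart. Genes with at least 1 count numbered 21130 to 21355 in the 4 non-transfected libraries and 22705 to 24371 in the 12 siRNA libraries, and the part of this shift in the rises of low genes below was not tested. Epithelial markers, with KRT8, KRT18, KRT19 and EPCAM all detected, summed to between 725 and 1680 CPM. KRT7 and CDH1 of the same list were low, with means of 2.92 and 6.27 CPM in non-transfected cells without TGFb.

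NPAT siRNA raised 4 genes of the alpha cluster. Without TGFb, 10 of the 41 tested members were called at an adjusted p below 0.05, 9 higher and 1 lower than in non-transfected cells, where 18.9% of all 17743 genes tested were called higher and 13.4% lower. The members called are 4 of the 6 tested alpha genes, 2 gamma genes, 4 non-clustered genes and no beta gene. PCDHAC2 was at 15.8 and 18.6 CPM in the non-transfected libraries and at 28.7 and 31.6 CPM after NPAT siRNA, a log2 fold change of 0.81 ± 0.15 (SE, adjusted p = 0.0019). PCDHA12 was at 9.42 and 9.70 CPM and rose to 16.9 CPM in both NPAT siRNA libraries (0.82 ± 0.22, adjusted p = 0.015). PCDHA4 was at 4.78 and 4.34 CPM and reached 10.4 and 13.5 CPM (1.39 ± 0.43, adjusted p = 0.026). PCDHA10, near the detection limit at 0.428 and 0.190 CPM, reached 1.85 and 1.61 CPM (2.46 ± 0.74, adjusted p = 0.024). In none of these 4 genes did the groups overlap, as in 64.4% of all genes tested. The remaining tested alpha genes, PCDHA13 (0.89 ± 0.42) and PCDHAC1 (-0.74 ± 0.49), did not pass.

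Of the gamma genes, PCDHGB1 rose from 1.96 and 1.83 CPM to 4.03 and 3.58 CPM (1.00 ± 0.29, adjusted p = 0.020), and PCDHGA10 fell from 1.36 and 1.29 CPM to 0.415 and 0.748 CPM (-1.19 ± 0.38, adjusted p = 0.030). PCDHGB7 went from 9.99 and 10.7 CPM to 15.7 and 17.4 CPM, which did not pass (adjusted p = 0.057). PCDHGC3 was at 51.0 and 58.9 CPM and at 66.3 and 83.0 CPM, and did not pass either (adjusted p = 0.19). The 12 tested beta genes had a median log2 fold change of -0.18 and none passed. PCDHB2, the highest beta gene, was at 7.89 and 11.9 CPM and at 9.01 and 14.4 CPM, with groups that overlap. A difference between the clusters was not tested.

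In the NPAT siRNA comparison without TGFb, the call of PCDHAC2 held without any single library. Those of PCDHA12 (0.77 to 0.84), PCDHA4 (1.18 to 1.43), PCDHA10 (2.00 to 3.12), PCDHGB1 (0.92 to 1.02) and PCDHGA10 (-1.22 to -0.82) were lost without either non-transfected library or without 1 or both NPAT siRNA libraries, with the values in brackets. PCDHGA10 was also lost with DESeq2.

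With TGFb present, NPAT siRNA gave 7 higher members and 0 lower, against 13.7% and 10.3% of all genes. PCDHAC2 was at 11.9 and 9.30 CPM in non-transfected cells with TGFb and at 18.6 and 20.1 CPM after NPAT siRNA (0.87 ± 0.15, adjusted p = 0.0019). PCDHA12 went from 9.35 and 9.55 CPM to 13.6 and 20.4 CPM (0.85 ± 0.22, adjusted p = 0.016), and PCDHA13 from 0.396 and 0.646 CPM to 2.15 and 2.44 CPM (2.12 ± 0.48, adjusted p = 0.0078). Of the gamma genes 3 were called. PCDHGB1 rose from 1.39 and 1.11 CPM to 6.04 and 3.91 CPM (1.99 ± 0.30, adjusted p = 0.00088), PCDHGB7 from 11 and 7.76 CPM to 19.3 and 20.3 CPM (1.08 ± 0.25, adjusted p = 0.0099) and PCDHGB2 from 7.80 and 6.03 CPM to 9.96 and 11.7 CPM (0.65 ± 0.22, adjusted p = 0.046). All 6 clustered genes showed no overlap between the groups, as did 66.4% of all genes. PCDHA4 (0.85 ± 0.43) and PCDHA10 (0.62 ± 0.65) did not pass here.

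With TGFb, the calls of PCDHAC2 and PCDHGB1 held without any single library. PCDHA13 was lost without replicate 1 of the non-transfected cells (1.84), PCDHA12 without either non-transfected library or NPAT siRNA replicate 2 (0.53 at the lowest), PCDHGB7 without non-transfected replicate 2 (0.85) or NPAT siRNA replicate 2 (1.04), and PCDHGB2 without any of the 4 libraries (0.47 to 0.86).

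**Figure D2:**
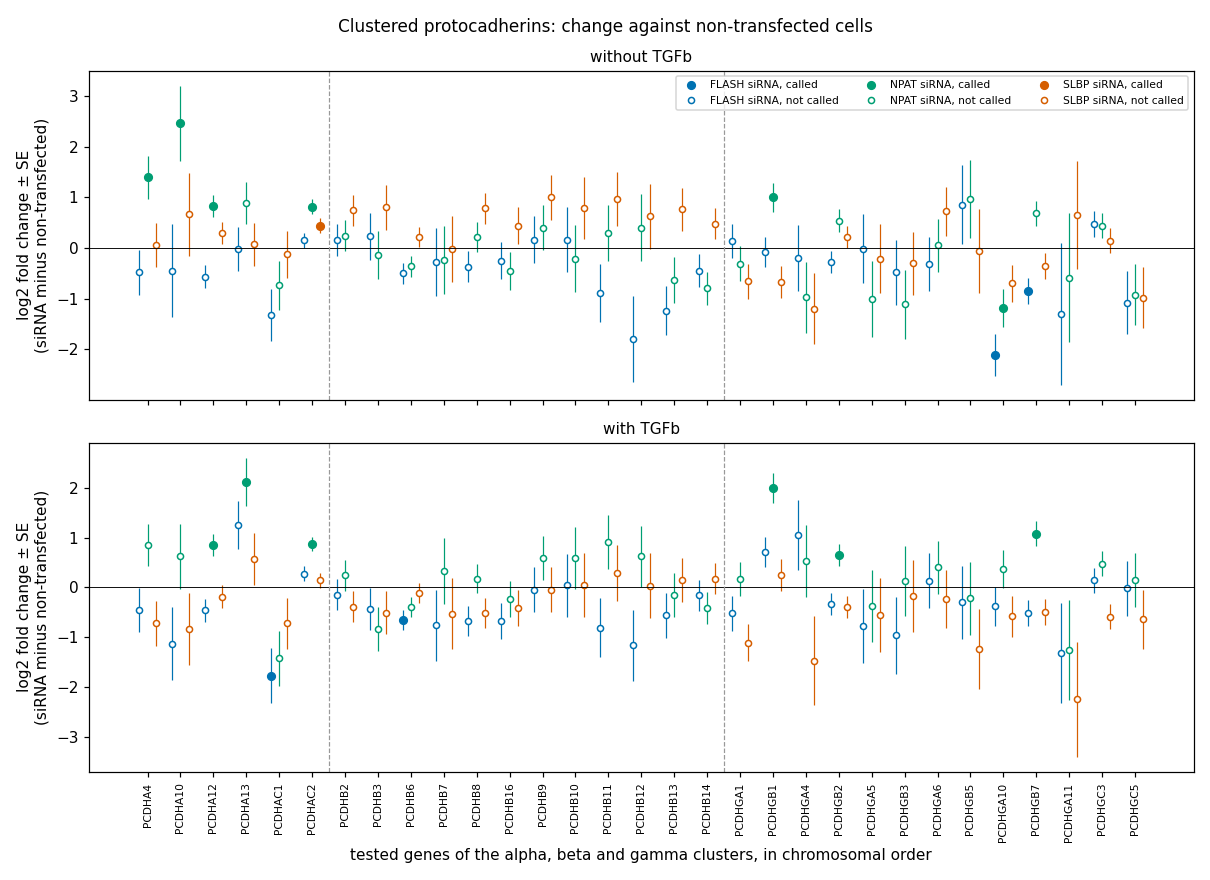
Log2 fold change with its SE of the 31 tested clustered genes in chromosomal order, siRNA minus non-transfected cells, without TGFb (top) and with TGFb (bottom); filled points were called at an adjusted p below 0.05. NPAT siRNA (green) has its filled points in the alpha and gamma clusters, and the beta cluster holds a single filled point, PCDHB6 with FLASH siRNA and TGFb.

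Summed over its 15 genes, the alpha cluster was at 34.0 and 35.4 CPM in non-transfected cells and at 61.9 and 68.3 CPM after NPAT siRNA, a ratio of means of 1.88. With TGFb it was at 27.7 and 27.1 CPM and at 42.7 and 56.9 CPM, a ratio of 1.80. The gamma cluster was at 75.2 and 85.3 CPM and at 100 and 118 CPM after NPAT siRNA (ratio 1.36), and with TGFb at 78.1 and 79.7 CPM and at 113 and 124 CPM (ratio 1.5). In each of these 4 pairs both NPAT siRNA libraries lay above both non-transfected ones. The beta sum overlapped between the groups, at 23.9 and 30.7 CPM against 22.5 and 33.3 CPM (ratio 1.01). After FLASH siRNA the alpha sum was 30.2 and 32.5 CPM, and after SLBP siRNA 39.7 and 47.4 CPM. Sums over all members of a cluster have no test here.

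**Figure D3:**
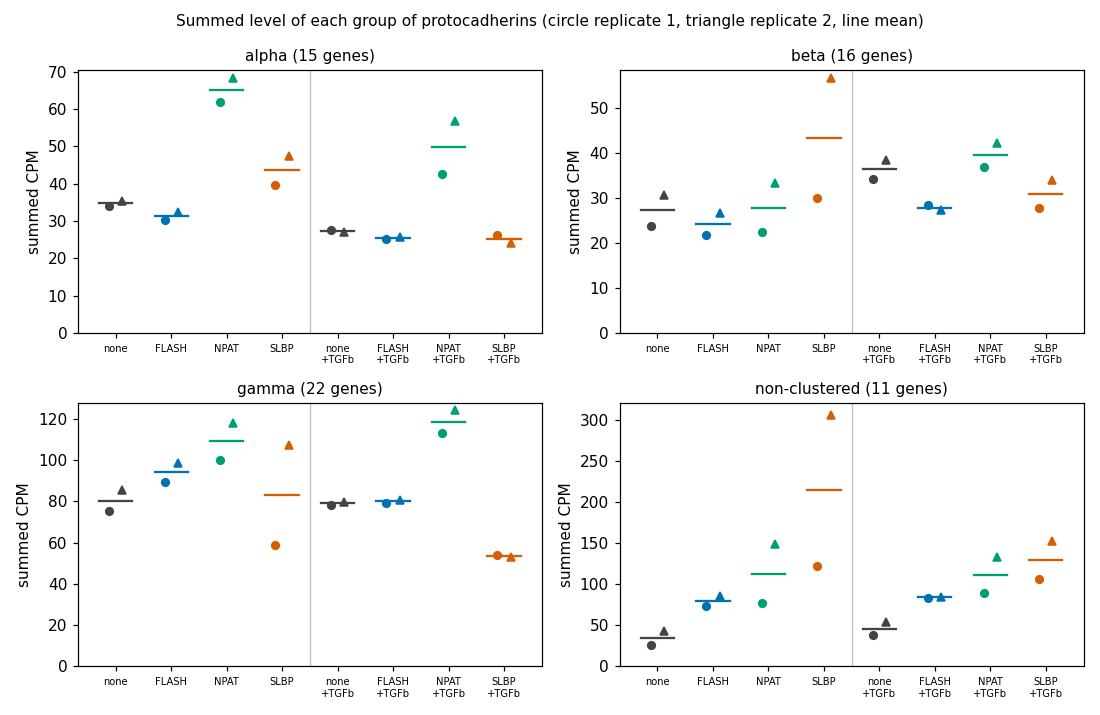
Summed CPM of the alpha, beta, gamma and non-clustered protocadherins in each of the 16 libraries, with the mean of each group as a line. The alpha sum of the NPAT siRNA libraries (61.9 and 68.3 CPM without TGFb) stands above all other groups without TGFb. The non-clustered sum has its highest mean after SLBP siRNA. Its SLBP libraries (122 and 307 CPM) overlap the NPAT siRNA libraries (77.2 and 149 CPM), and also do so with TGFb (106 and 153 against 90.1 and 133 CPM).

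FLASH siRNA lowered 2 gamma genes and raised 4 non-clustered genes. Of the 41 members 4 were higher and 2 lower, against 20.8% and 12.9% of all genes. These calls together cover 14.6% of the members, less than the share of all genes called higher alone. The 2 gamma genes are 15.4% of the 13 tested, near the 12.9% of all genes called lower. Without a filter on low counts 11 members were called. PCDHGA10 fell from 1.36 and 1.29 CPM to 0.353 and 0.258 CPM (-2.11 ± 0.41, adjusted p = 0.0020), and this call held without any single library. PCDHGB7 fell from 9.99 and 10.7 CPM to 4.90 and 6.55 CPM (-0.85 ± 0.26, adjusted p = 0.025). That call was lost without either non-transfected library or without FLASH siRNA replicate 1 (-0.71 at the smallest). The alpha genes gave no call, and PCDHAC2 was at 19.9 and 18.3 CPM, overlapping the non-transfected cells. PCDHGC3 was at 71.0 and 80.8 CPM, above both non-transfected libraries, and did not pass (adjusted p = 0.17).

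The 4 genes that rose with FLASH siRNA are non-clustered. PCDH19, a delta-protocadherin whose mutation causes an X-linked epilepsy, was at 0.25 and 0.152 CPM in non-transfected cells and at 3.17 and 2.69 CPM after FLASH siRNA (3.83 ± 0.61, adjusted p = 0.00059). PCDH12, known from vascular endothelium, had 1 count in all in the 2 non-transfected libraries and 44 counts after FLASH siRNA, a ratio of 45.3 with a 95% counting interval of 7.73 to 1830 (edgeR adjusted p = 0.0050). PCDH12 would not have passed the filter on low counts without the FLASH siRNA libraries. Its calls and ratios with FLASH siRNA, without and with TGFb, are favoured by that. After NPAT siRNA PCDH12 had 9 counts (ratio 9.41, 95% counting interval 1.3 to 412) and after SLBP siRNA 7 (6.44, 0.827 to 290), without a call. The 5 endothelial markers summed to 0.0357 and 0.0381 CPM in the non-transfected libraries, with VWF, PECAM1 and TEK at 0. They summed to 3.42 and 4.86 CPM after FLASH, 1.46 and 4.11 CPM after NPAT and 1.73 and 2.80 CPM after SLBP siRNA. Their part in the PCDH12 result was not tested. PCDH20 was at 0.464 and 1.86 CPM and at 5.80 and 9.68 CPM (2.75 ± 0.93, adjusted p = 0.038). PCDH1 was the fourth and is described below with all its comparisons. The PCDH19 and PCDH12 calls held without any single library, whereas PCDH20 was lost without any of the 4 libraries (2.00 to 4.05).

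With TGFb, FLASH siRNA gave 3 higher and 2 lower members, against 17.5% and 9.06% of all genes. Together these are 12.2% of the members, less than the share of all genes called higher alone. PCDH19 was at 0.119 and 0.431 CPM without siRNA and at 2.58 and 3.38 CPM with it (3.39 ± 0.58, adjusted p = 0.0012). PCDH12 had 1 count against 28 counts (ratio 25.8, 95% counting interval 4.27 to 1060). That call was lost without either non-transfected library or without FLASH siRNA replicate 2. With TGFb, PCDH12 had 17 counts after NPAT siRNA (ratio 16.7, interval 2.61 to 697) and 13 after SLBP siRNA (13.8, 2.08 to 588), without a call. PCDHAC1, a C-type alpha gene, fell from 0.713 and 0.611 CPM to 0.198 and 0.183 CPM (-1.77 ± 0.56, adjusted p = 0.034), and PCDHB6 from 6.73 and 6.57 CPM to 4.33 and 4.15 CPM (-0.65 ± 0.20, adjusted p = 0.030). Both of these were lost without any of the 4 libraries, PCDHAC1 also with DESeq2 and PCDHB6 without a filter on low counts. PCDHGA10 did not pass with TGFb (-0.38 ± 0.39).

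SLBP siRNA raised 8 of the 10 tested non-clustered genes. Without TGFb 9 members were higher and 0 lower, against 15.1% and 10.8% of all genes, and 8 of the 9 are non-clustered. Several of the 10 passed the filter on low counts only through siRNA libraries, such as PCDH19 at 7 and 4 counts in non-transfected cells. That favours calls above these cells. PCDH20 was at 0.464 and 1.86 CPM in non-transfected cells and at 20.2 and 73.5 CPM after SLBP siRNA (5.34 ± 0.95, adjusted p = 0.0022). PCDH15, which forms the tip link of inner ear hair cells with cadherin-23, was at 0.321 and 0.761 CPM and at 3.23 and 11.9 CPM (3.80 ± 0.69, adjusted p = 0.0025). PCDH17, a delta-protocadherin that recruits the WAVE actin regulators, was at 0.286 and 0.761 CPM and at 3.81 and 8.85 CPM (3.59 ± 0.58, adjusted p = 0.0013). All 3 were low in non-transfected cells, and after SLBP siRNA replicate 2 was above replicate 1 in each.

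PCDH9, a delta-protocadherin, was at 2.57 and 6.55 CPM and at 23.5 and 60.8 CPM (3.21 ± 0.57, adjusted p = 0.0021). PCDH18, of the same family, was at 4.25 and 7.80 CPM and at 18.5 and 52.4 CPM (2.56 ± 0.57, adjusted p = 0.0075), and PCDH7 at 14.8 and 22.6 CPM and at 40.6 and 88.0 CPM (1.78 ± 0.38, adjusted p = 0.0060). PCDH19 reached 0.912 and 0.882 CPM (2.12 ± 0.65, adjusted p = 0.032). The groups did not overlap in any of these 4 genes, as in 58.9% of all genes. Summed over the 11 non-clustered genes, non-transfected libraries held 25.8 and 43.4 CPM and SLBP siRNA libraries 122 and 307 CPM. The single clustered gene called was PCDHAC2, at 21.8 and 24.8 CPM (0.44 ± 0.15, adjusted p = 0.047). PCDH12 was not called, and PCDH10, a delta-protocadherin, had 1 count against 15 counts, a ratio of 13.8 (95% counting interval 2.12 to 581), without a call.

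Replicate 2 was above replicate 1 in 8 of 8 groups for PCDH9, PCDH17 and PCDH20, in 7 for PCDH15 and PCDH18, in 6 for PCDH7, in 5 for PCDH19, in 4 for PCDHAC2 and in 3 for PCDH1. The 20 neuronal markers, of which 14 were tested and 11 stayed below 1 CPM in every library, summed to 630 and 730 CPM in non-transfected cells. After SLBP siRNA they summed to 827 and 1030 CPM, with 5 higher and 1 lower, against 15.1% and 10.8% of all genes. Their part in the result was not tested. The calls of PCDH15, PCDH17, PCDH20 and PCDH9 held without any single library. PCDH7 and PCDH18 were lost without non-transfected replicate 1 (1.48 and 2.16) or SLBP siRNA replicate 2 (1.12 and 1.62), PCDH19 without any of the 4 libraries (1.83 to 2.50) and PCDHAC2 without either non-transfected library or SLBP siRNA replicate 2 (0.30 to 0.56). In a fit of these 4 libraries alone 3 members were called, and PCDH15, PCDH18, PCDH19, PCDH7, PCDH9 and PCDHAC2 were lost.

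With TGFb, SLBP siRNA gave 6 higher members and 0 lower, all non-clustered, against 12.3% and 7.60% of all genes. PCDH15 was at 0.238 and 0.323 CPM without siRNA and at 1.42 and 3.34 CPM with it (3.06 ± 0.77, adjusted p = 0.015). PCDH19 was at 0.119 and 0.431 CPM and at 1.11 and 1.91 CPM (2.41 ± 0.60, adjusted p = 0.015), and PCDH17 at 0.238 and 0.467 CPM and at 1.07 and 2.12 CPM (2.14 ± 0.63, adjusted p = 0.032). PCDH9 rose from 3.29 and 4.78 CPM to 13.4 and 17.8 CPM (1.95 ± 0.57, adjusted p = 0.030) and PCDH7 from 17.7 and 23.0 CPM to 43.4 and 68.2 CPM (1.45 ± 0.38, adjusted p = 0.019). PCDH20 and PCDH18 did not pass here (adjusted p = 0.29 and 0.16). Among the 6, the call of PCDH1 alone held without any single library. PCDH15, PCDH17, PCDH7, PCDH9 and PCDH19 were lost without SLBP siRNA replicate 2 and without non-transfected replicate 1, with values of 2.32, 1.57, 1.09, 1.73 and 1.96 without the former.

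After NPAT siRNA 4 non-clustered genes rose, among them PCDH1. PCDH9 reached 16.1 and 37.5 CPM (2.56 ± 0.56, adjusted p = 0.0051), PCDH20 5.73 and 20.3 CPM (3.49 ± 0.93, adjusted p = 0.013) and PCDH18 12.3 and 32.3 CPM (1.89 ± 0.57, adjusted p = 0.024). All 3 were lost without non-transfected replicate 1 (2.00, 2.77 and 1.48), and PCDH20 and PCDH18 also without NPAT siRNA replicate 2 (2.31 and 1.04). With TGFb none of the 3 passed, with log2 fold changes of 1.42 ± 0.56 for PCDH9, 1.41 ± 0.79 for PCDH20 and 0.85 ± 0.55 for PCDH18. Across the 10 tested non-clustered genes the median log2 fold change was 1.16 after FLASH, 1.86 after NPAT and 2.88 after SLBP siRNA, beside 0.04, 0.06 and 0.05 over all genes tested. Several of these genes passed the filter only through siRNA groups, which favours such medians, and the 3 comparisons share their control libraries.

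**Figure D4:**
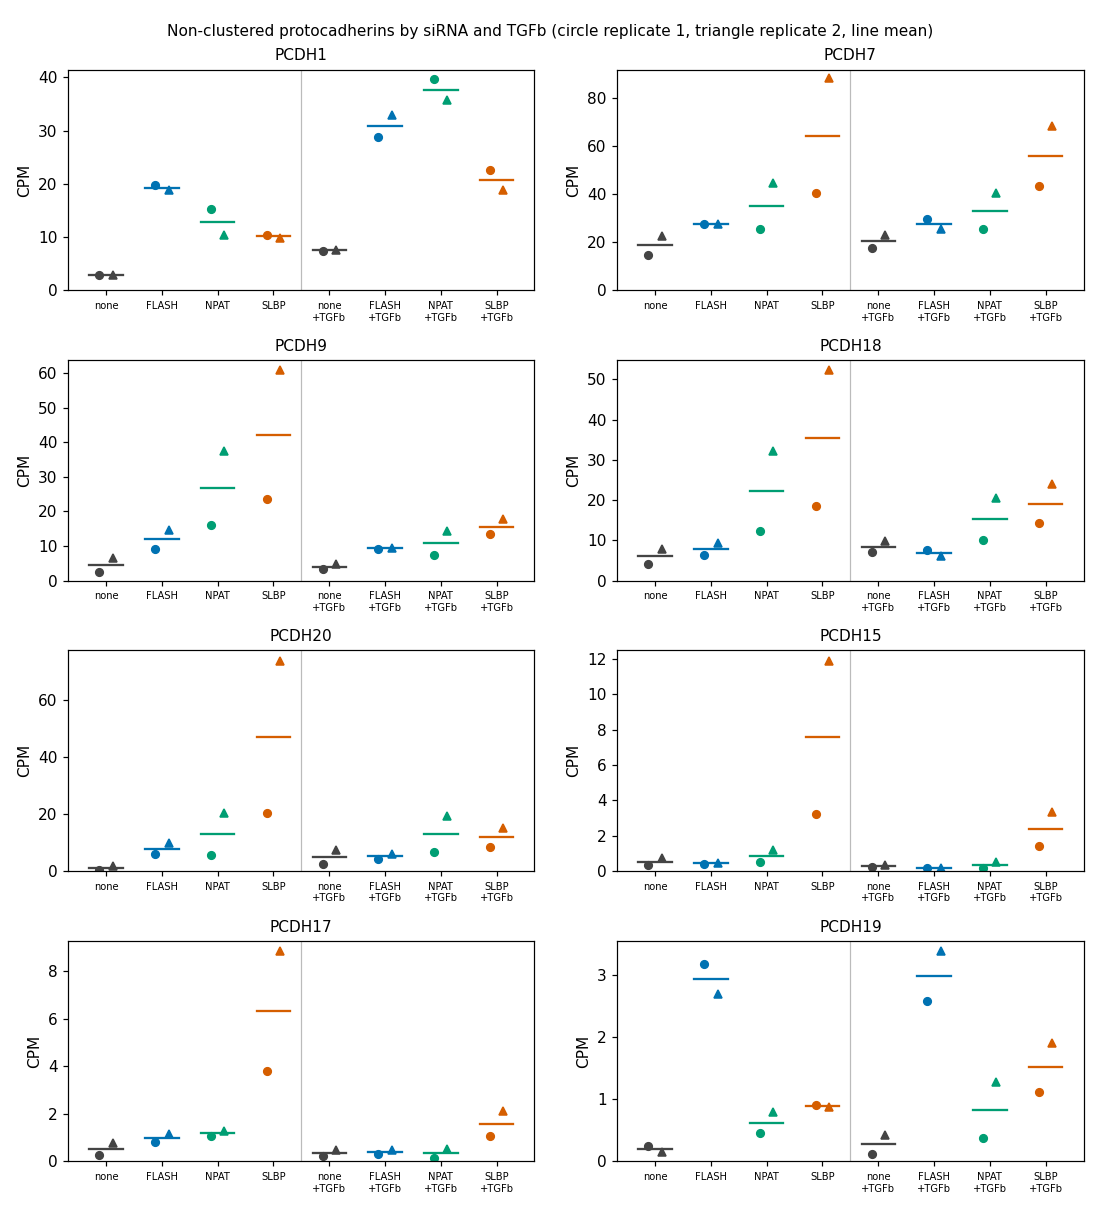
CPM of 8 non-clustered protocadherins in the 16 libraries, with circles for replicate 1, triangles for replicate 2 and a line at the mean of each group. PCDH1 is higher with each siRNA and again with TGFb, PCDH19 is highest after FLASH siRNA, and PCDH15 and PCDH17 rise with SLBP siRNA, where replicate 2 (11.9 and 8.85 CPM) lies above replicate 1 (3.23 and 3.81 CPM).

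PCDH1 rose in each of the 6 comparisons of siRNA with non-transfected cells and in each of the 4 TGFb comparisons. It is a delta-protocadherin of epithelial cell junctions, at chr5:141853111-141879246 on the minus strand, and lies outside the clusters. Without TGFb it was at 2.78 and 2.89 CPM in non-transfected cells, 19.7 and 18.9 CPM after FLASH siRNA, 15.3 and 10.4 CPM after NPAT siRNA and 10.4 and 9.84 CPM after SLBP siRNA. With TGFb the values were 7.37 and 7.58, 28.8 and 33.0, 39.6 and 35.7, and 22.6 and 18.9 CPM in the same order. No siRNA group overlapped the non-transfected group at the same TGFb state, which held for 71.0% of all genes with FLASH siRNA, 68.5% with FLASH siRNA and TGFb, and 63.3% with SLBP siRNA and TGFb. The log2 fold changes against non-transfected cells without TGFb were 2.77 ± 0.19, 2.17 ± 0.19 and 1.83 ± 0.19 for FLASH, NPAT and SLBP siRNA (adjusted p = 1.4e-06, 1.7e-05 and 6.3e-05). With TGFb they were 2.05 ± 0.17, 2.33 ± 0.17 and 1.47 ± 0.17 (adjusted p = 8.9e-06, 9.7e-06 and 0.00016). All 6 calls held without any single library. TGFb itself raised PCDH1 in all 4 kinds of cells, by 1.40 ± 0.19 in non-transfected cells (adjusted p = 0.00058), 0.68 ± 0.16 after FLASH siRNA (0.037), 1.55 ± 0.17 after NPAT siRNA (0.00017) and 1.04 ± 0.17 after SLBP siRNA (0.0014). The call after FLASH siRNA was lost without any of its 4 libraries (0.58 to 0.77), and the other 3 held. The 6 epithelial markers summed to 1140 and 1240 CPM in non-transfected cells, 1570 and 1680 CPM with FLASH, 1360 and 1560 CPM with NPAT and 1230 and 1240 CPM with SLBP siRNA. Of the 6, 3 were called higher with FLASH, 3 with NPAT and 1 with SLBP siRNA, and 0 lower. Over all genes tested, 20.8%, 18.9% and 15.1% were called higher. CDH1 was called with each siRNA, from 6.27 CPM to 34.6, 29.5 and 11.7 CPM in that order. With TGFb alone the 6 markers summed to 741 and 817 CPM, and 4 of the 6 were called lower. The part of these markers in the PCDH1 result was not tested.

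TGFb raised PCDH1 and PCDHB6 and lowered PCDHAC2 in non-transfected cells. In these cells 2 members were higher and 1 lower, where 4.54% of all genes were called higher and 1.64% lower. After FLASH siRNA there was 1 higher member and 0 lower (3.35% and 0.750% of all genes), after NPAT siRNA 2 higher and 1 lower (3.42% and 1.92%), and after SLBP siRNA 1 higher and 2 lower (8.07% and 4.51%). Without a filter on low counts the members called numbered 6, 2, 5 and 10 in the same order. PCDHAC2 fell from 15.8 and 18.6 CPM to 11.9 and 9.30 CPM in non-transfected cells (-0.70 ± 0.15, adjusted p = 0.016), from 28.7 and 31.6 CPM to 18.6 and 20.1 CPM after NPAT siRNA (-0.64 ± 0.15, adjusted p = 0.025) and from 21.8 and 24.8 CPM to 12.6 and 10.8 CPM after SLBP siRNA (-1.0 ± 0.15, adjusted p = 0.00091). After FLASH siRNA it went from 19.9 and 18.3 CPM to 13.5 and 12.1 CPM, which did not pass (-0.58 ± 0.15, adjusted p = 0.051). PCDHAC2 with TGFb lay below PCDHAC2 without it, with no overlap, in each of the 4 kinds of cells, where 47.2%, 53.4%, 43.9% and 47.7% of all genes did not overlap in non-transfected, FLASH, NPAT and SLBP siRNA cells.

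PCDHB6 rose with TGFb from 3.68 and 3.54 CPM to 6.73 and 6.57 CPM in non-transfected cells (0.88 ± 0.20, adjusted p = 0.021) and from 3.32 and 2.28 CPM to 5.66 and 4.41 CPM after NPAT siRNA (0.84 ± 0.21, adjusted p = 0.033). It was at 2.66 and 2.43 CPM and at 4.33 and 4.15 CPM after FLASH siRNA (0.73 ± 0.21, adjusted p = 0.076) and at 3.81 and 4.59 CPM and at 6.08 and 6.23 CPM after SLBP siRNA (0.55 ± 0.20, adjusted p = 0.099), and did not pass there. PCDH17 fell with TGFb after SLBP siRNA, from 3.81 and 8.85 CPM to 1.07 and 2.12 CPM (-1.99 ± 0.52, adjusted p = 0.024). The PCDHAC2 call after SLBP siRNA held without any single library, and those in non-transfected cells and after NPAT siRNA were lost without at least 2 libraries (-0.53 and -0.56 at the smallest). The PCDHB6 and PCDH17 calls were lost without several libraries, with PCDHB6 between 0.60 and 1.01 and PCDH17 at -1.26 without SLBP siRNA replicate 2.

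**Figure D5:**
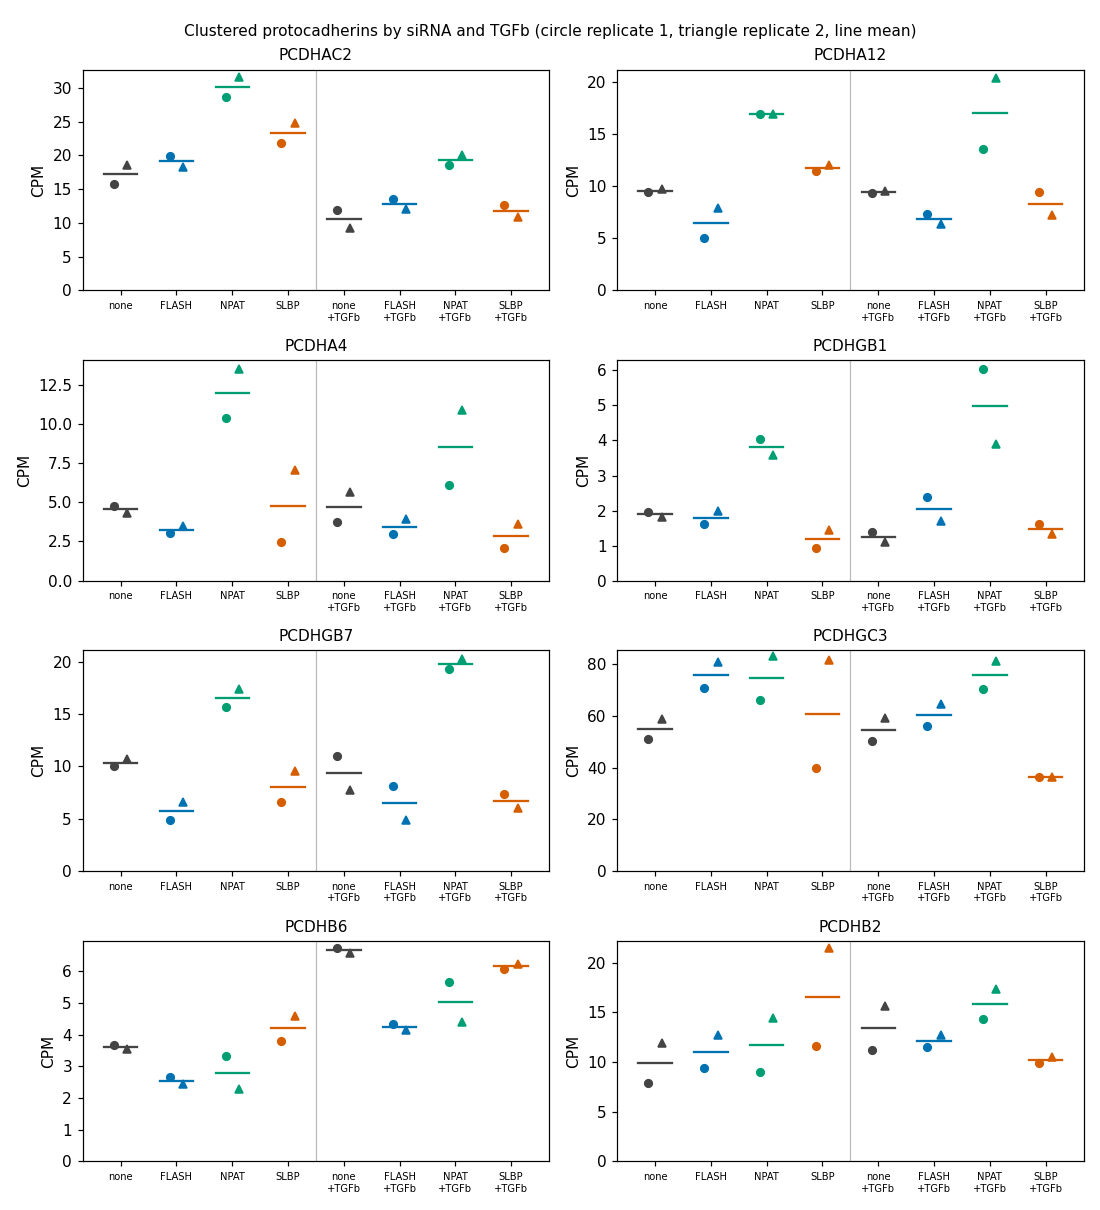
CPM of 8 clustered protocadherins in the 16 libraries, with circles for replicate 1, triangles for replicate 2 and a line at the mean of each group. PCDHAC2 is lower with TGFb in each kind of cell and higher after NPAT siRNA than in the non-transfected cells at the same TGFb state, PCDHGB1 and PCDHGB7 are highest after NPAT siRNA, and PCDHB6 is higher with TGFb.

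The interaction of siRNA and TGFb was tested for the 41 members that passed the filter. The counts of called members were 0, 0 and 0 for FLASH, NPAT and SLBP siRNA by edgeR and also by DESeq2, where edgeR called 0.0845%, 0.0451% and 0.0225% of all genes. At an unadjusted p below 0.05 the members numbered 2, 2 and 3. Without a filter on low counts edgeR called 1, 2 and 4 members, and a fit with a replicate block called 1 for SLBP siRNA. PCDH20 with SLBP siRNA had the largest of these differences, -4.08 ± 1.21 (adjusted p = 0.78). With 2 libraries a group the SE of an interaction is wide, so this does not show that the responses were alike.

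The siRNA groups were also compared with each other. FLASH against NPAT siRNA gave 2 higher and 7 lower members (12.4% and 9.91% of all genes), and 1 higher and 5 lower with TGFb (9.09% and 4.50%). PCDHA12 was lower, with a log2 fold change of -1.39 ± 0.23 (adjusted p = 0.0016), and of -1.31 ± 0.23 with TGFb (adjusted p = 0.0036). The latter call was lost without replicate 2 of FLASH siRNA (-1.22) or of NPAT siRNA (-0.99). PCDHGB7 was lower at -1.53 ± 0.26 (adjusted p = 0.0020) and with TGFb at -1.60 ± 0.26 (adjusted p = 0.0026), and both PCDHGB7 calls held without any single library. PCDHAC2, PCDHGB1 and PCDHGB2 were also lower with FLASH than with NPAT siRNA in both states, with log2 fold changes between -1.28 and -0.60. PCDHA4 (-1.87) and PCDHA10 (-2.90) were called without TGFb. PCDH19 was higher with FLASH siRNA in both states (2.24 ± 0.53 and 1.82 ± 0.51). The calls of PCDHA4, PCDHA10, PCDHAC2, PCDHGB1, PCDHGB2 and PCDH19 were each lost without at least 1 library of the groups compared.

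NPAT against SLBP siRNA gave 2 higher and 3 lower members without TGFb (8.88% and 7.12% of all genes) and 10 higher and 2 lower with TGFb (5.77% and 6.61%). The 10 are PCDHA4, PCDHA12, PCDHA13, PCDHAC2, PCDHGA1, PCDHGB1, PCDHGB2, PCDHGB7, PCDHGC3 and PCDH1. PCDHGC3, which passed in no comparison with non-transfected cells, was at 70.5 and 81.3 CPM with NPAT siRNA and TGFb and at 36.4 and 36.5 CPM with SLBP siRNA and TGFb (1.06 ± 0.25, adjusted p = 0.017), a call lost without SLBP siRNA replicate 1, SLBP siRNA replicate 2 or NPAT siRNA replicate 2 (0.95 to 1.06). PCDHGB7 (1.57 ± 0.26, adjusted p = 0.0026) and PCDHGB1 (1.74 ± 0.30, adjusted p = 0.0029) held without any single library. The calls of PCDHA4, PCDHA12, PCDHA13, PCDHAC2, PCDHGA1, PCDHGB2 and PCDH1 were each lost without at least 1 library. PCDHA13 and PCDHGA1 were lost without any of the 4 libraries compared, and PCDHGA1 also with DESeq2. PCDH15 and PCDH17 were lower with NPAT than with SLBP siRNA in both states, by -3.17 ± 0.66 and -2.42 ± 0.53 without TGFb, and all 4 of these calls were lost without SLBP siRNA replicate 2. Without TGFb, a fit of these 4 libraries alone called 0 members, whereas DESeq2 called 7.

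FLASH against SLBP siRNA without TGFb gave 3 higher and 14 lower members, against 15.3% and 10.8% of all genes. The 14 include 6 beta genes, which passed against non-transfected cells in no comparison without TGFb. PCDHB13 was at 0.666 and 0.626 CPM with FLASH siRNA and at 1.47 and 3.74 CPM with SLBP siRNA (-2.00 ± 0.47, adjusted p = 0.0086), and PCDHB8 at 1.88 and 2.54 CPM and at 3.55 and 6.28 CPM (-1.15 ± 0.30, adjusted p = 0.015). PCDHB6, PCDHB11, PCDHB12 and PCDHB14 were lower by 0.72 to 2.43 on the log2 scale. All 6 calls were lost without SLBP siRNA replicate 2, where PCDHB13 was at -1.18 and PCDHB11 at -0.65, and in a fit of these 4 libraries alone, which called 4 members in all. With TGFb only PCDH1 (0.57 ± 0.16, higher) and PCDH15 (-3.60 ± 0.80, lower) were called, against 8.31% and 4.73% of all genes, and both were lost without several libraries.

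Genes that work with the protocadherins were taken from lists written from general knowledge. The counts of these lists stand beside shares over all genes of 20.8% higher and 12.9% lower with FLASH siRNA, 18.9% and 13.4% with NPAT siRNA, 15.1% and 10.8% with SLBP siRNA, and 13.7% and 10.3% with NPAT siRNA and TGFb. All 24 regulators of the clusters (CTCF, cohesin, its loaders and releasers, DNA methylation and H3K9 methylation factors) were tested. NPAT siRNA called 1 higher and 6 lower without TGFb and 0 higher and 8 lower with it. PDS5A, a cohesin regulator, went from 204 to 128 CPM (-0.67, adjusted p = 0.00027), UHRF1, which guides maintenance methylation, from 32.4 to 19.2 CPM (-0.75, adjusted p = 0.017) and STAG1, a cohesin subunit, from 67.0 to 89.7 CPM (0.42, adjusted p = 0.039). SLBP siRNA called 0 higher and 4 lower, among them DNMT1, the maintenance DNA methyltransferase, from 150 to 87.5 CPM (-0.78, adjusted p = 0.00014) and CTCF from 62.4 to 49.1 CPM (-0.35, adjusted p = 0.010). FLASH siRNA called 4 higher and 4 lower, with DNMT3B at 5.29 and 10.6 CPM (1.01, adjusted p = 0.0019), UHRF1 at 32.4 and 63.6 CPM (0.97, adjusted p = 0.0035) and CTCF at 62.4 and 49.9 CPM (-0.32, adjusted p = 0.010). The medians over the list were -0.06, -0.07 and -0.02 for FLASH, NPAT and SLBP siRNA, beside 0.04, 0.06 and 0.05 over all genes.

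Of 25 partners and proteases of protocadherins (FAK and PYK2 kinases, RET, the WAVE complex, ADAM10, gamma-secretase, catenins, N-cadherin and cadherin-11), FLASH siRNA called 7 higher and 4 lower, NPAT siRNA 8 and 2, and SLBP siRNA 9 and 2. RET, a receptor kinase that binds clustered protocadherins in mouse, rose from 11.7 ± 7.98 CPM (SD, n = 2) to 52.8 ± 8.98, 191 ± 140 and 64.1 ± 50.9 CPM in that order (edgeR 2.18, 4.03 and 2.45, adjusted p = 0.023, 0.0014 and 0.018). CDH2, N-cadherin, rose from 42.3 to 70.5 CPM with NPAT siRNA (0.74, adjusted p = 0.0075), to 94.7 CPM with SLBP siRNA (1.16, adjusted p = 0.00085) and to 100 CPM with TGFb alone (1.24, adjusted p = 0.00084). TGFb in non-transfected cells called 2 higher and 0 lower.

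The genes beside and between the 5q31 clusters gave 6 higher and 2 lower of 15 tested with FLASH siRNA, 4 and 3 with NPAT siRNA and 2 and 0 with SLBP siRNA. TAF7, a single-exon gene of a TFIID subunit that lies between the beta and gamma clusters, fell from 143 to 78.3 CPM with NPAT siRNA (-0.86, adjusted p = 0.00098). DIAPH1, beyond the gamma cluster, rose from 126 to 217 CPM with FLASH siRNA (0.79, adjusted p = 6.3e-05) and to 161 CPM with SLBP siRNA (0.36, adjusted p = 0.013). A list of other cadherin superfamily genes held FAT, Dachsous, CELSR, calsyntenin and CDHR genes, CDH23 and PCDH11X, a protocadherin outside the members. Of its 16 tested genes, 10 were higher and 1 lower with FLASH siRNA (20.8% and 12.9% of all genes). The counts were 8 and 0 with NPAT siRNA (18.9% and 13.4%) and 7 and 0 with SLBP siRNA (15.1% and 10.8%). The medians were 1.18, 1.13 and 0.57. CDH23, the partner of PCDH15 in the tip link, rose from 1.59 to 15.2 CPM with FLASH siRNA (3.25, adjusted p = 7.4e-05) and to 11.2 CPM with NPAT siRNA (2.80, adjusted p = 0.00033). With SLBP siRNA, where PCDH15 rose, CDH23 was at 2.44 CPM and did not pass (0.61, adjusted p = 0.27).

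Markers of other cell types were measured in the same libraries. Of the 14 neuronal markers tested, FLASH siRNA called 7 higher and 1 lower (20.8% and 12.9% of all genes). NPAT siRNA called 5 higher and 0 lower (18.9% and 13.4%). Among those higher with FLASH siRNA, STMN2 and CHGA were at 0 CPM in non-transfected cells. NEFH, RBFOX3 and NCAM1 were at 0.0178, 0.0357 and 0.0737 CPM there. Genes this low passed the filter on low counts only through siRNA libraries, which favours calls above these cells. NCAM1, a neural adhesion molecule, went from 0.0737 CPM to 4.06 CPM with FLASH, 0.692 CPM with NPAT and 1.33 CPM with SLBP siRNA. Other markers of this list fell. SYP went from 21.4 to 11.1 CPM with FLASH siRNA (-0.94, adjusted p = 0.0015 by edgeR). ENO2 went from 49.6 to 32.9 CPM with SLBP siRNA (-0.59, adjusted p = 0.017). The 5 fibroblast markers, mostly THY1, summed to 3.46 and 5.10 CPM in non-transfected cells and to between 22.1 and 48.9 CPM in the siRNA libraries without TGFb. The 6 leukocyte markers summed to 26.3 to 186 CPM over all libraries, and neither of the 2 tested, CD68 and ITGAM, passed with FLASH siRNA. The part of these genes in the protocadherin values was not tested.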

How the data were processed

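RNA from 16 PANC-1 libraries was sequenced as stranded poly(A) RNA, per the labels' protocols. STAR 2.4.2a, RSEM 1.2.31 and build GRCh38.p10 are named in the submitters' processing notes. The authors deposited expected counts (estimated counts, which need not be whole) per gene. The authors also deposited TPM and transcript lengths per gene, and 32 columns of other measures were not used. Expected counts were rounded to whole numbers and tested with edgeR 4.0.16 (quasi-likelihood, filterByExpr, TMM, 8 group means, 8 residual degrees of freedom, Benjamini-Hochberg over all 17743 genes tested, called below 0.05). CPM was computed from the deposited counts, and deposited TPM was used only for levels between genes. The steps were tested on simulated data. Named genes were the siRNA targets, the highest members by mean and within each subfamily, in each comparison the called members with the largest changes, and of each list those with the largest changes. Others named (every remaining call, CTCF, values that did not pass) were chosen after their values were seen. The members and lists were chosen with earlier results of these data known. Alternatives were size factors, filters, DESeq2 1.42.0, a replicate block, fits of only the groups compared and leaving out each library. Ratios of low counts carry counting error only. Replicates were not identical, with a chi-square per gene of 8.39 to 58.2. Promoters and positions came from RefSeq and GENCODE tables.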

Additional observations from a re-analysis of the deposited data

Results flagged for a closer look

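Several members moved one way with TGFb, in both libraries against both, in one kind of cell and the opposite way in another, or did so with siRNA in the absence and presence of TGFb. Of all genes tested, 43.9% to 53.4% did not overlap in a single TGFb comparison. For siRNA against non-transfected cells the share was 58.9% to 71.0%. The share of all genes with such opposite moves was not counted, so these moves cannot be read as particular to the protocadherins. Differences are on the log2 scale, the first named effect minus the second. PCDHB3 differed by 1.31 between the TGFb effects in non-transfected cells and after SLBP siRNA, and its SLBP siRNA effect differed by 1.31 without against with TGFb. PCDHB8 differed by 1.3 in both of these comparisons, and PCDHB6 by 0.33 in the second. PCDH20 differed by 4.07 in the first. The interaction test covers these differences and gave an adjusted p of 0.84 for PCDHB8 and 0.78 for PCDH20, so none passed.

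The TGFb effect on PCDHGA10 in non-transfected cells differed by -1.73 from that after FLASH siRNA and by -1.55 from that after NPAT siRNA, and its NPAT siRNA effect differed by -1.55 without against with TGFb. These did not pass the interaction test either. The TGFb effect on PCDHGB3 differed by -1.23 between non-transfected cells and NPAT siRNA.

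Between pairs of siRNAs the difference was not tested. PCDHGA10 differed by 1.6 between the TGFb effects after FLASH and SLBP siRNA and by 1.42 between NPAT and SLBP siRNA. PCDHGA1 differed by -1.14 between FLASH and NPAT siRNA and by 0.93 between NPAT and SLBP siRNA. PCDHGB3 differed by 1.1 between NPAT and SLBP siRNA.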

How the results depend on the processing

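Counts of called members are given here in the order TGFb in non-transfected, FLASH, NPAT and SLBP siRNA cells, then each siRNA against non-transfected cells, then siRNA against siRNA. No called value changed direction. Without a filter on low counts the counts were 6, 2, 5 and 10 for TGFb, 11 for FLASH siRNA without TGFb, and 14 and 12 for NPAT and SLBP siRNA with TGFb. They were 15 and 13 for FLASH against NPAT siRNA without and with TGFb, 11 for FLASH against SLBP siRNA with TGFb, 12 for NPAT against SLBP siRNA without it, and 1, 2 and 4 for the interactions of FLASH, NPAT and SLBP siRNA. With a replicate block they were 5, 4, 5 and 11 for TGFb, 13 for FLASH siRNA, 14 and 11 for NPAT and SLBP siRNA with TGFb, 13 for FLASH against NPAT and 9 for FLASH against SLBP siRNA with TGFb, 11 for NPAT against SLBP siRNA and 1 for the SLBP interaction. Replicate numbers were not taken as pairs in the main fit. Over 28 pairs of groups the correlation of same-numbered deviations was 0.084 to 0.665 (median 0.354), above 0.1 in 26. Same-numbered libraries thus tended to deviate together. The main fit leaves this shared deviation in the SE, and leaving out 1 library then sets unlike replicate numbers against each other. With the replicate block 0 of the 104 calls were lost. In fits of only the groups compared the counts were 2 and 1 for TGFb after FLASH and NPAT siRNA, 11 for NPAT siRNA with TGFb, 3 for SLBP siRNA, 10 and 8 for FLASH against NPAT and SLBP siRNA with TGFb, 4 for FLASH against SLBP siRNA without it and 0 for NPAT against SLBP siRNA. TGFb after FLASH siRNA gave 2 with DESeq2, RLE size factors or a stricter filter. FLASH against SLBP siRNA with TGFb gave 6 with DESeq2, and FLASH siRNA with TGFb gave 3 with the stricter filter. The cause of these moves was not tested. Leaving out 1 library gave 1 to 2, 0 to 0, 1 to 2 and 2 to 11 for TGFb. It gave 4 to 6 and 2 to 5 for FLASH siRNA without and with TGFb, 2 to 8 and 4 to 7 for NPAT and 5 to 15 and 1 to 5 for SLBP. Between siRNAs it gave 3 to 7 and 1 to 4 for FLASH against NPAT, 2 to 19 and 0 to 1 for FLASH against SLBP, and 3 to 9 and 3 to 8 for NPAT against SLBP. Log2 changes of summed CPM ranged from 0.84 to 0.98 and 0.64 to 1.06 with TGFb (alpha, NPAT siRNA), -0.27 to 0.30 and 0.02 to 0.22 (beta), 0.33 to 0.55 and 0.52 to 0.65 (gamma), and 1.86 to 3.20 and 1.22 to 1.75 (non-clustered, SLBP siRNA). Of 104 calls, 29 were kept without any single library. Depth limits the low genes: the mean count per library among tested members was as low as 4.56 for PCDHGA11 and 5.38 for PCDH10.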
